A study of Mus musculus with 10 samples.

Results

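The 10 genes described here are encoded in the nucleus and act on mitochondrial DNA or RNA, or on the genes for such proteins: Polrmt, Tfam, Tfb1m, Tfb2m, Tefm, Polg, Lrpprc, Slirp, Pnpt1 and Nrf1. They were taken by symbol from the deposited count table, which gave 10 of 55487 genes. The rule uses names and no measured value, although the set was put together with earlier results of these data known. All 10 had reads in each of the 10 libraries and passed the filter on low counts, which kept 18957 genes. RNA was sequenced from microglia, the resident macrophages of the retina, sorted as viable GFP-positive cells from Cx3cr1GFP/+ mice. In these mice a GFP reporter takes the place of one copy of the fractalkine receptor gene Cx3cr1, and this genotype is shared by every group, the controls included. The GFP gate can also take other myeloid cells that use the Cx3cr1 promoter. The groups are Control (n = 3), 4wk STZ (n = 3) and 8wk STZ (n = 4), in which STZ is streptozotocin, a toxin of pancreatic beta cells used to make mice diabetic. Both retinas of an animal were pooled, so each library is 1 animal. Neither ages nor the event from which the weeks were counted are in the labels, and with a single control set, time since treatment and age cannot be told apart.

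The mitochondrial genome is read by a single-subunit RNA polymerase, POLRMT, which is related to phage enzymes. TFAM bends and packages mitochondrial DNA and brings POLRMT to the promoter, TFB2M helps it to open the strands, and TEFM keeps it moving along the template, while POLG copies the genome itself. The long transcripts are then cut into mRNA, rRNA and tRNA, and LRPPRC with its partner SLIRP holds mRNA in a stable form, whereas PNPT1 degrades mitochondrial RNA. NRF1, nuclear respiratory factor 1, and the ETS-family factor GABP are known to bind promoters of many nuclear genes for mitochondrial proteins. Microglia rely on both glycolysis and mitochondrial respiration.

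The promoter sequences of these genes are shown because both factors are known to act there. RefSeq windows of 300 bases (250 before the annotated start and 50 from it on, GRCm38.p6) were matched for 10 of 10 genes and searched on both strands. The ETS motif CCGGAAG lay in the windows of 5 genes, Polrmt, Tfam, Tefm, Polg and Slirp, and in those of 9.93% of all 27025 genes with such a window. The NRF-1 core, GCGCA and GCGC with any base between them, lay in the window of 1 gene, Polrmt, as a pair of matches that overlap each other, and in those of 5.19% of all genes. Capitals mark the match in the following 30-base stretches, each written 5′ to 3′ on the strand of its gene, so that an ETS match on the other strand reads CTTCCGG and an NRF-1 match there reads GCGC, any base, TGCGC. Such a match is a description of letters, not a bound site.
Polrmt, ETS, chr10:79746606-79746635, minus strand: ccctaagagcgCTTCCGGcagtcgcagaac
Polrmt, NRF-1 core, chr10:79746568-79746597, minus strand: cctgcaggcgGCGCGTGCGCgtgcgcactg
Tfam, ETS, chr10:71238073-71238102, minus strand: cctgccgcggaCCGGAAGtccgggcttccc
Tefm, ETS, chr11:80142144-80142173, minus strand: agcacacgaaaCCGGAAGttgaggaggaac
Polg, ETS, chr7:79466293-79466322, minus strand: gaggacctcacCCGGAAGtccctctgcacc
Slirp, ETS, chr12:87443837-87443866, plus strand: aacagtttggcCCGGAAGcagaactcgaaa
The ETS matches shown for Polrmt, Tfam, Tefm, Polg and Slirp began 43, 47, 9, 38 and 48 bases before the RefSeq start. The Slirp window held 2 further ETS matches. The gene spans printed below come from another annotation, GENCODE, whose starts can differ. Within those spans the stretches of Tfam, Tefm and Polg lie inside the gene. The windows of Tfb1m, Tfb2m, Lrpprc, Pnpt1 and Nrf1 held neither motif in these letters.

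Library totals ran from 45656309 to 54312248 reads in Control, 33266838 to 49051036 in 4wk STZ, and 46143178 to 62903489 in 8wk STZ, and the shallowest library was 4wk STZ 3. The label of microglia was checked against 12 markers, all detected, whose summed level was 48563 to 52690 CPM (read counts scaled to a common library size, with TMM factors) in Control, 41868 to 47443 with 4wk STZ and 41309 to 44817 with 8wk STZ. Markers of other retinal cells were present too. The 16 rod markers summed to 9508 to 10587, 4593 to 6648 and 2856 to 4017 CPM in the same order, and 8 markers of Müller glia and astrocytes to 910 to 1373, 1079 to 1247 and 651 to 938 CPM. Glul alone gave group means of 632, 683 and 533 CPM of the latter sum. At 8 weeks against Control all 8 of these markers were below 0, and 2 were called lower. The 8 cone markers summed to 196 to 227, 202 to 252 and 182 to 283 CPM, so the groups overlapped. Most of that sum was Gngt2 (group means 153, 148 and 183 CPM). At 8 weeks against Control 6 of the cone markers were above 0, 2 were below and 0 were called. The 7 bipolar markers summed to 35.2 to 82.2, 54.5 to 67.4 and 13.5 to 35.8 CPM. The 10 markers of amacrine, horizontal and ganglion cells summed to 155 to 159, 132 to 152 and 64 to 83 CPM. Most of this sum came from Snap25 (group means 108, 88.5 and 46.3 CPM) and Syt1 (34.5, 34.2 and 15.1 CPM). At 8 weeks against Control these 2 were the only markers of the list that were called. Of its 9 tested markers 6 had a log2 fold change below 0 and 3 above 0. The 6 monocyte and neutrophil markers summed to 5.01 to 17.5 CPM over the 10 libraries, and the 6 border macrophage markers to 59.3 to 429 CPM, with Cd209f at 0. In bulk RNA of this kind, fewer cells of a type and less RNA per cell cannot be told apart. In the fit over all genes, no gene was called at 4 weeks, 449 were called in 8wk STZ against Control (184 higher and 265 lower) and 174 in 8wk STZ against 4wk STZ. With library totals as the scaling 66.2% of the calls at 8 weeks against Control were higher, with upper-quartile factors 30.9% and with TMM 41.0%.

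No gene of the 10 passed the test in any of the 3 comparisons. For 4wk STZ against Control 0 of 10 were called (0% of all genes tested), for 8wk STZ against Control 0 of 10 (2.37% of all genes) and for 8wk STZ against 4wk STZ 0 of 10 (0.918% of all genes), at an adjusted p under 0.05 in edgeR's quasi-likelihood test. The count was also 0 in each comparison with DESeq2 (which called 1.77%, 8.52% and 7.10% of all genes), limma-voom (0%, 3.19% and 1.10%) and edgeR's likelihood ratio test (1.28%, 6.07% and 3.95%). Slirp stands in these counts of 10, but nearly all of its exonic sequence is shared with genes on the other strand, so its values are those of its counts and not of its level. At an unadjusted p under 0.05 the counts were 1 of 10 (Tfb1m, at 4 weeks; 9.75% of all genes), 0 of 10 (15.7%) and 0 of 10 (13.7%). The median log2 fold change of the 10 genes was -0.18, 0.15 and 0.30 in these comparisons, against -0.0039, -0.0061 and -0.00045 over all genes tested. The first and second comparisons share the Control libraries.

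What these libraries could resolve differed between the genes. The 95% interval of the log2 fold change lay inside -1 to 1, that is within a doubling or a halving, for 8 of 10 genes in each comparison with Control, and Tfb1m and Slirp were the exceptions in both. In 8wk STZ against 4wk STZ it did so for 6 of 10, and the exceptions were Tfam, Tfb1m, Polg and Slirp. A change inside an interval can have gone uncalled with 3 or 4 animals a group. In the test of the scripts on simulated data, a log2 change of 1 at 8 weeks against Control was called for 41% of 100 genes. A log2 change of 0.5 was called for 0% of 100.

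**Figure D1:**
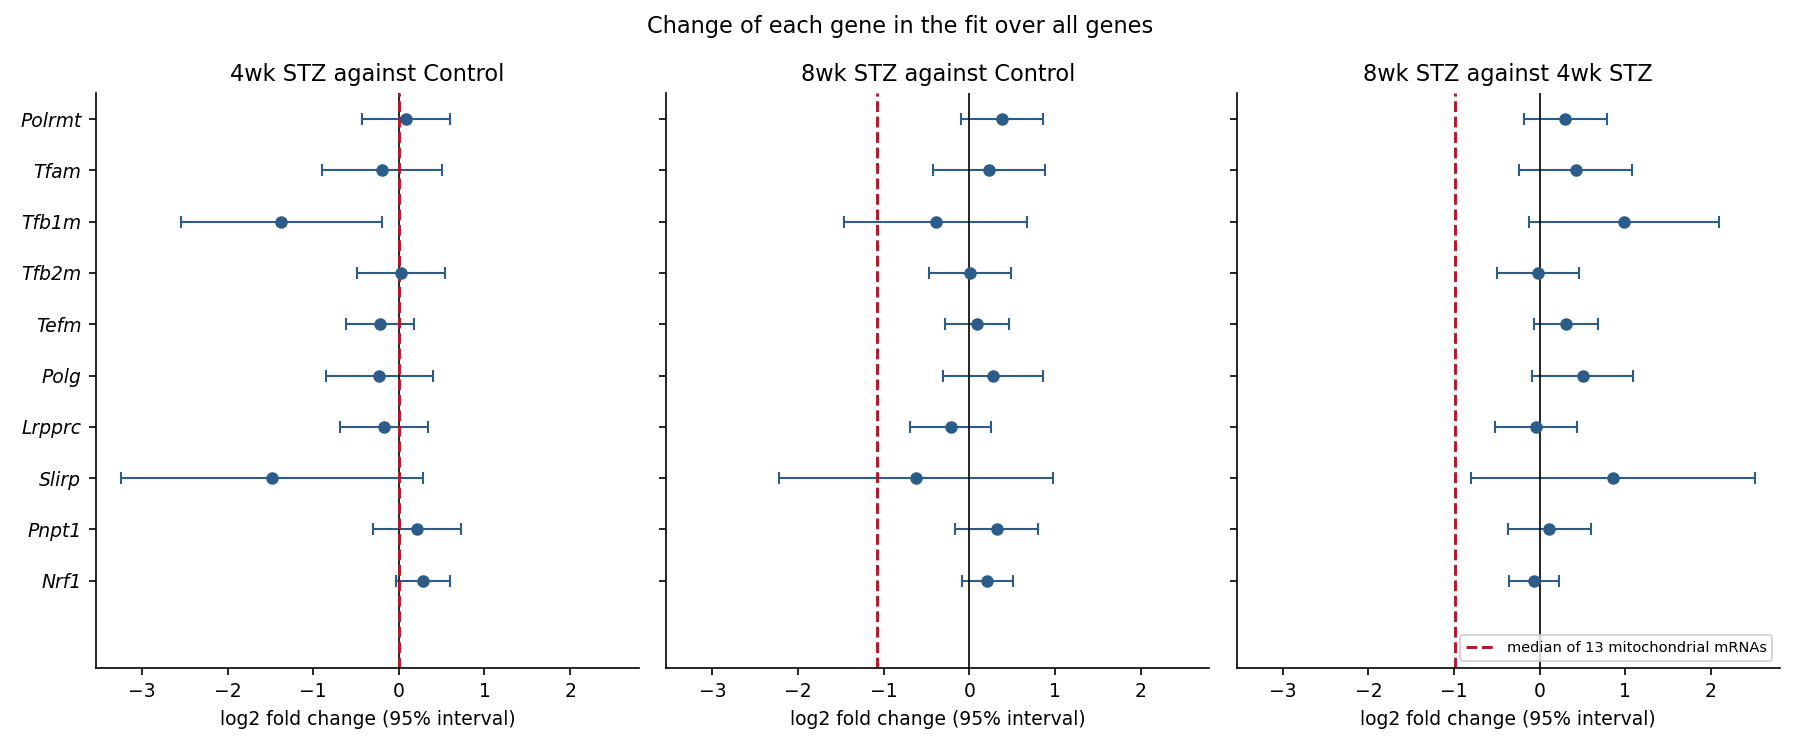
Log2 fold change of each of the 10 genes (points) with its 95% interval (bars) in the 3 comparisons. The dashed line is the median of the 13 mitochondrially encoded mRNAs, at 0.000086, -1.07 and -0.98; every interval but that of Tfb1m at 4 weeks covers 0, and at 8 weeks against Control the intervals of all genes but Tfb1m and Slirp lie to the right of the dashed line.

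Polrmt (chr10:79736123-79746581, minus strand, GRCm38), the RNA polymerase of mitochondria, stood at 19.3, 20.8 and 24.5 CPM in Control. It was at 26.3, 27.9 and 14.2 CPM in 4wk STZ and at 28.0, 30.3, 26.6 and 27.4 CPM in 8wk STZ. All 4 libraries of 8wk STZ lay above the highest Control library, while 4wk STZ was split, with 4wk STZ 3 the lowest of all 10. The means were 21.5 ± 2.72, 22.8 ± 7.46 and 28.1 ± 1.56 CPM (SD, n = 3, 3 and 4). The log2 fold change was 0.08 at 4 weeks (95% interval -0.43 to 0.59) and 0.38 at 8 weeks (-0.10 to 0.86, adjusted p = 0.460), and neither passed. Over 22 alternatives at 8 weeks the value stayed between 0.31 and 0.49 and the adjusted p between 0.158 and 0.643. In the authors' deposited table Polrmt has a log2 fold change of 0.38 with an FDR of 0.427 at 8 weeks.

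Tfam (chr10:71225464-71238280, minus strand), which packages mitochondrial DNA and starts transcription, was at 23.6, 29.3 and 10.2 CPM in Control, a nearly 3-fold range (the highest library of all was 2.89 times the lowest, and both were Control). Its levels were 17.1, 16.5 and 21.5 CPM in 4wk STZ and 25.5, 28.5, 21.4 and 23.0 CPM in 8wk STZ. The STZ libraries all lay inside the Control range. The log2 fold changes were -0.19 (-0.89 to 0.51, adjusted p = 0.918) at 4 weeks and 0.23 (-0.43 to 0.88, adjusted p = 0.817) at 8 weeks. One library set the sign at 8 weeks: without Control 3 the value was -0.10, and without Control 2 it was 0.54.

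Tfb2m (chr1:179528055-179546267, minus strand), the factor that opens the promoter with POLRMT, was the steadiest of the initiation genes. Its levels were 9.21, 8.50 and 12.4 CPM in Control, 9.26, 8.82 and 12.6 in 4wk STZ, and 10.0, 10.2, 10.7 and 9.48 in 8wk STZ. The groups overlapped throughout. Its log2 fold changes were 0.02 (-0.49 to 0.53) at 4 weeks, 0.01 (-0.47 to 0.49) at 8 weeks and -0.02 (-0.49 to 0.46) between the times, each with an adjusted p of 0.989 or more.

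Tfb1m (chr17:3519256-3557781, minus strand), a paralog of Tfb2m whose protein methylates the small mitochondrial rRNA, gave the lowest unadjusted p of the 10 genes. Its levels by library were 5.45, 4.39 and 2.55 CPM in Control, 2.74, 1.12 and 0.901 in 4wk STZ, and 4.55, 2.02, 3.18 and 2.82 in 8wk STZ. The ranges of Control and 4wk STZ overlapped only between the lowest Control library and the highest 4wk STZ library, and 8wk STZ lay across both. These levels rest on 29 to 287 reads per library. The log2 fold change at 4 weeks was -1.37 (-2.55 to -0.20), which did not pass over all genes (adjusted p = 0.453, and 0.216 to 0.811 over 22 alternatives). At 8 weeks it was -0.39 (-1.46 to 0.68, adjusted p = 0.804), and between the times 0.98 (-0.12 to 2.09, adjusted p = 0.426). Single libraries moved these values: at 8 weeks it was -0.14 without Control 1 and -0.64 without Control 3, and between the times 1.64 without 4wk STZ 1 and 0.71 without 4wk STZ 3. The authors' deposited table lists Tfb1m at 4 weeks with a log2 fold change of -1.37, a p of 0.0245 and an FDR of 0.362.

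Tefm (chr11:80136678-80142175, minus strand), the elongation factor, was at 20.0, 23.3 and 16.4 CPM in Control, 15.5, 18.6 and 17.3 in 4wk STZ, and 22.8, 21.7, 21.4 and 18.6 in 8wk STZ. Its 8wk STZ libraries lay above all 4wk STZ libraries by a narrow margin and inside the Control range. The log2 fold change between the times was 0.30 (-0.07 to 0.68, adjusted p = 0.473), and those against Control were -0.22 (-0.61 to 0.18) and 0.09 (-0.28 to 0.46).

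Polg (chr7:79446231-79466362, minus strand), the catalytic subunit of the mitochondrial DNA polymerase, stood at 16.0, 15.7 and 17.8 CPM in Control and at 16.3, 7.35 and 18.6 CPM in 4wk STZ. In 8wk STZ it was at 19.4, 19.9, 19.8 and 20.6 CPM. These 4 libraries were tightly grouped and above every other library, and 4wk STZ 2 was the lowest of all. The log2 fold change was 0.27 (-0.31 to 0.86, adjusted p = 0.731) at 8 weeks against Control and 0.50 (-0.09 to 1.09, adjusted p = 0.449) against 4 weeks, the latter 0.19 without 4wk STZ 2 and 0.75 without 4wk STZ 3. Of its exonic sequence 8.57% is shared with Fanci on the other strand, and the kit does not mark strand.

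Few of the 10 genes had groups that did not overlap. Against Control they were 1 of 10 at 4 weeks (the counts of Slirp, lower; 6.25% of all genes lower and 12.3% in either direction) and 2 of 10 at 8 weeks (Polrmt and Polg, higher; 8.91% higher and 16.9% in either direction). Between the times they were 3 of 10 (Tefm, Polg and the counts of Slirp, higher in 8wk STZ; 8.39% higher and 15.4% in either direction). Without Slirp, whose counts cannot be read as its level, they were 0, 2 and 2 of 9.

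**Figure D2:**
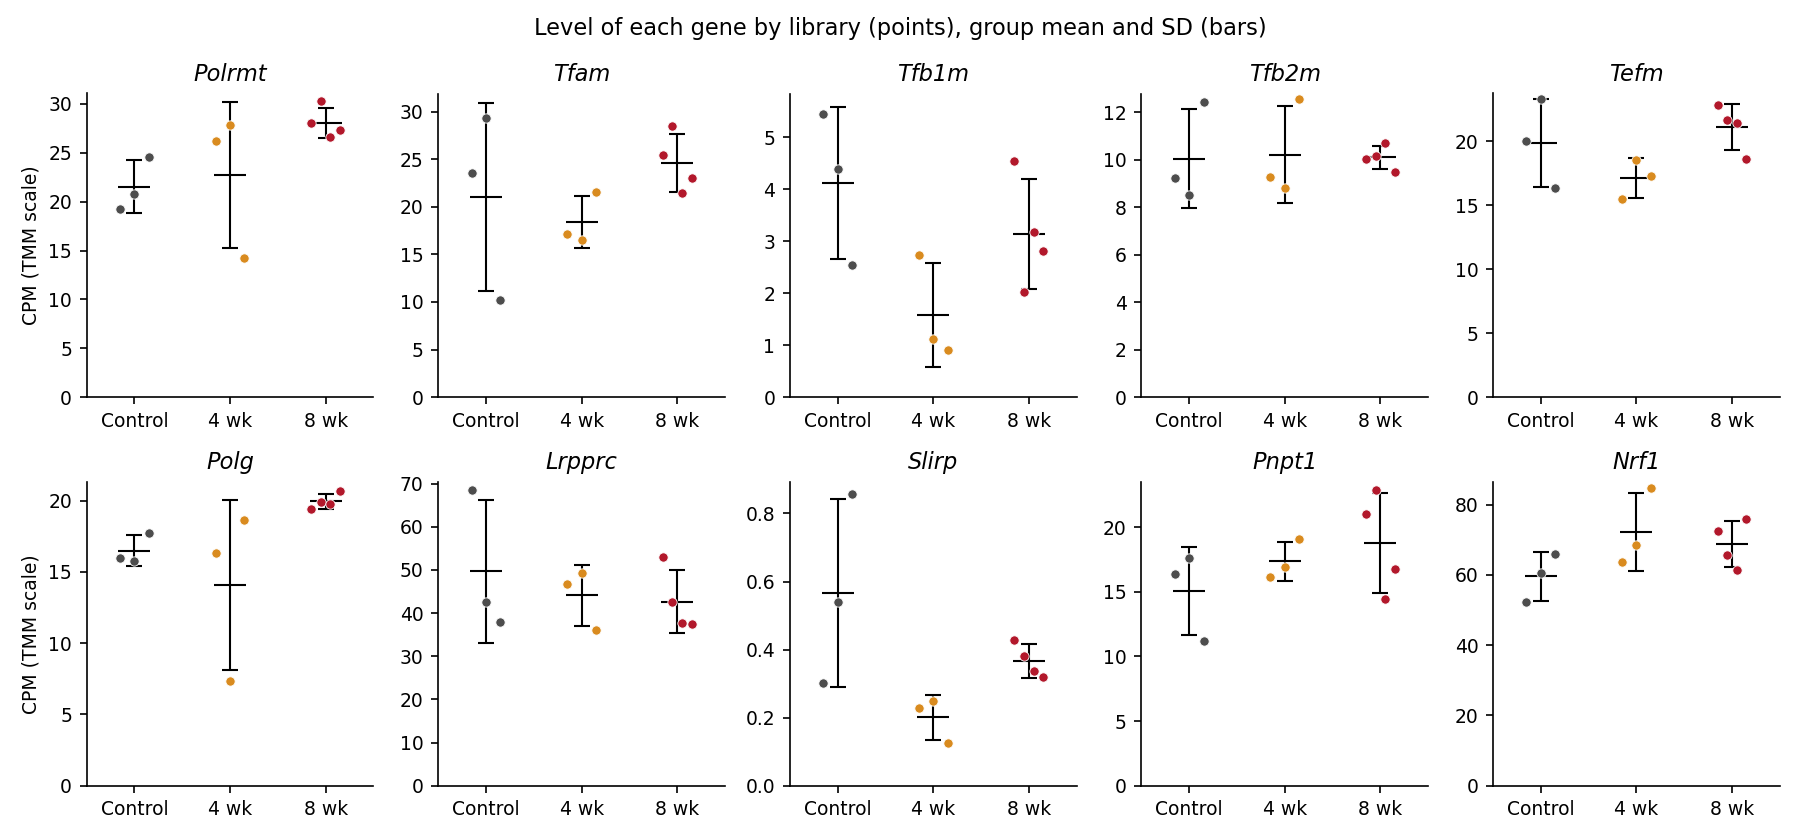
CPM of each gene by library (points), with the mean and SD of Control (n = 3), 4wk STZ (n = 3) and 8wk STZ (n = 4), on axes from 0. The 8wk STZ points of Polrmt and Polg lie above their Control points, the Slirp points of 4wk STZ lie below those of Control, and the groups of the other 7 genes overlap with Control.

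Lrpprc (chr17:84705247-84790789, minus strand), which stabilises mitochondrial mRNA, was at 68.6, 42.5 and 37.9 CPM in Control. It was at 46.8, 49.3 and 36.1 in 4wk STZ and at 53.0, 42.6, 37.6 and 37.4 in 8wk STZ. Control 1 was the highest of all libraries, and the groups overlapped otherwise. The log2 fold changes were -0.17 (-0.68 to 0.34, adjusted p = 0.895) and -0.22 (-0.70 to 0.26, adjusted p = 0.738), and without Control 1 they were 0.13 and 0.08.

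Slirp (chr12:87443896-87452206, plus strand), the RNA-binding partner of Lrpprc, had 4 to 44 reads per library, 191 in all. Its levels were 0.303, 0.540 and 0.856 CPM in Control, 0.228, 0.249 and 0.124 in 4wk STZ, and 0.428, 0.381, 0.338 and 0.319 in 8wk STZ. The 4wk STZ libraries were the 3 lowest of the 10. The log2 fold changes were -1.48 (-3.25 to 0.29, adjusted p = 0.601) at 4 weeks and -0.62 (-2.22 to 0.97, adjusted p = 0.789) at 8 weeks. Of its exonic sequence 97.8% is shared with genes on the other strand (93.9% with Snw1, which had 54506 reads), so 68 bases are its own. Among protein-coding genes with at least 90% of their exonic sequence shared in this way, 57 in all, the median was 0 reads over the 10 libraries, against 671 for the 19970 genes with under 10%. The counts of Slirp can therefore not be read as its level, and the authors' deposited table does not list it.

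Pnpt1 (chr11:29130744-29161828, plus strand), polynucleotide phosphorylase, stood at 16.3, 17.6 and 11.2 CPM in Control, 16.1, 16.9 and 19.1 in 4wk STZ, and 21.0, 22.9, 14.4 and 16.7 in 8wk STZ. Control 3 was the lowest library and 8wk STZ 1 and 2 the highest. The log2 fold changes were 0.21 (-0.31 to 0.72, adjusted p = 0.862) and 0.32 (-0.16 to 0.80, adjusted p = 0.565), and without Control 3 they were 0.03 and 0.15.

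Nrf1 (chr6:30047988-30153458, plus strand), the nuclear transcription factor of the set, had the most reads in all, with 2416 to 4567 per library, although Lrpprc had more in Control 1. It was at 52.2, 60.6 and 65.9 CPM in Control, 63.7, 68.4 and 84.8 in 4wk STZ, and 72.4, 65.7, 61.5 and 76.0 in 8wk STZ. Control 1 was the lowest library and 4wk STZ 3 the highest, and both STZ groups overlapped with Control. The log2 fold changes were 0.28 (-0.04 to 0.59, adjusted p = 0.577) and 0.21 (-0.09 to 0.51, adjusted p = 0.531), the narrowest intervals of the 10 genes.

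The genes other than Slirp could be ranked by level once CPM was divided by the length of their exons in kb. Tefm was highest, at 12.4 ± 1.73 CPM per kb (SD over 10 libraries), above the next gene, Nrf1 (6.53 ± 0.877), in 10 of 10 libraries. Nrf1 was above Lrpprc (5.31 ± 1.17) in 9 of 10. Lrpprc, Polrmt (5.23 ± 1.06), Pnpt1 (4.90 ± 0.933) and Tfam (4.88 ± 1.31) did not differ beyond their spread, since each lay above the next in 4, 5 and 6 of 10 libraries. Below them came Tfb2m (3.61 ± 0.502), Polg (1.60 ± 0.360) and Tfb1m (0.823 ± 0.408), each below the gene before it in 9 or 10 of 10 libraries. Among 13643 tested protein-coding genes these levels per kb lay from the 28.0th percentile (Tfb1m) to the 77.5th (Tefm). Long annotated isoforms lower the value per kb, and the exons of Polg span 10742 bases and those of Nrf1 10282, against 1570 for Tefm.

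**Figure D3:**
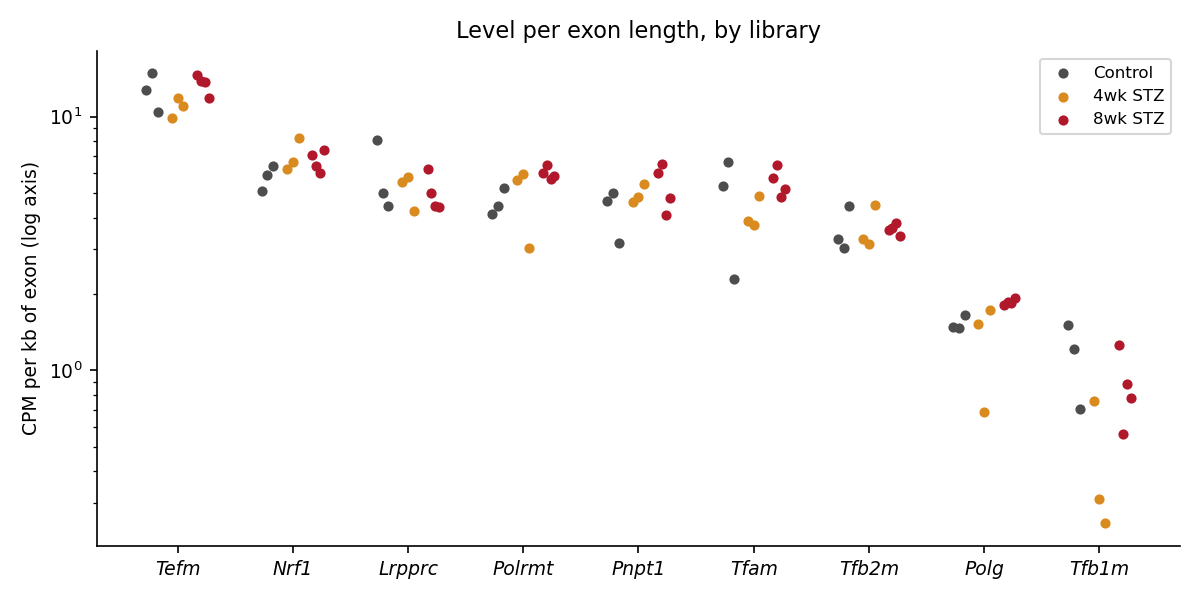
CPM per kb of exon of each gene but Slirp by library, on a log axis, ordered by the mean over 10 libraries, from Tefm (12.4) to Tfb1m (0.823). Points are libraries of Control, 4wk STZ and 8wk STZ, and Lrpprc, Polrmt, Pnpt1 and Tfam interleave.

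The spread within groups was smallest at 8 weeks for most of these genes. The coefficient of variation was lowest in 8wk STZ for 8 of 10, among them Slirp, whose counts cannot be read as its level. Its medians, Slirp included, were 21.7% in Control, 18.0% with 4wk STZ and 11.0% with 8wk STZ. Among all genes with a value in each group it was lowest in 8wk STZ for 45.0%, with medians of 29.4%, 29.6% and 22.9%. The 2 exceptions were Lrpprc and Pnpt1, which varied least in 4wk STZ. Polg showed the contrast most plainly, at 6.73%, 42.2% and 2.53%.

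The transcripts that these proteins make and maintain were lower at 8 weeks. The 13 mRNAs of the mitochondrial genome, which encode respiratory complex and ATP synthase subunits, summed to 15520.8 ± 912 CPM in Control, 16017 ± 2973 in 4wk STZ, and 7995 ± 1398 for 8wk STZ. In 8wk STZ against Control 9 of 13 fell and none rose, with a median log2 fold change of -1.07 over the 13 and a range of -1.24 to -0.57. The called mRNAs with the smallest p were mt-Co3, mt-Cytb, mt-Atp6 and mt-Nd1 (log2 fold changes -1.07, -1.10, -1.13 and -1.09, edgeR adjusted p = 0.00549, 0.00617, 0.00927 and 0.00974). Against 4wk STZ all 13 were below 0 (median -0.98) and 7 of 13 were called lower (0.522% of all genes). At 4 weeks against Control 0 of 13 were called, with 0 at an unadjusted p under 0.05 and 0 by DESeq2. The calls against 4wk STZ depended on single libraries: 0 of 13 remained without 4wk STZ 3 and 2 without 4wk STZ 2 or without 8wk STZ 2, 3 or 4. Against Control 7 to 9 of 13 were called whichever of the 10 libraries was left out. The rRNAs mt-Rnr1 and mt-Rnr2 fell against 4wk STZ (log2 fold changes -1.06 and -1.18, adjusted p = 0.0405 and 0.0312) but did not pass against Control (-0.66 and -0.68, adjusted p = 0.125 and 0.113). At 4 weeks against Control their values were above 0 and did not pass (0.40 and 0.50, adjusted p = 0.604 and 0.487). In the same 8wk STZ libraries all 16 rod markers were called lower than in Control, and the part of retinal RNA in the fall of the mitochondrial mRNAs was not tested.

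For 8 of the 10 genes the interval at 8 weeks against Control lay wholly above the median of the mitochondrial mRNAs, and Tfb1m and Slirp were the exceptions. Against 4wk STZ this held for 10 of 10, the counts of Slirp included. Of all genes tested it held for 58.8% and 56.5%, and the median is taken here as a fixed value without its own error. The summed mitochondrial mRNA per CPM of Polrmt was 727 ± 86.7 in Control (660 to 825), 803 ± 465 in 4wk STZ (498 to 1338) and 286 ± 53.5 in 8wk STZ (234 to 347), so that 8wk STZ stood at 39.3% of Control. The same ratio at 8 weeks was 35.6% of Control for Tfam, which rested on Control 3 and was 56.2% without it. It was 50.1% for Tfb2m, 47.0% for Tefm and 42.7% for Polg. It was 56.5% for Lrpprc, 40.4% for Pnpt1, 44.5% for Nrf1 and 64.1% for Tfb1m. Single Control libraries also moved Lrpprc (49.0% without Control 1 and 65.8% without Control 3) and Tfb1m (55.6% and 86.4%). At 4 weeks the mean ratio ran from 84.1% of Control for Nrf1 to 319% for Tfb1m. The 8wk STZ libraries lay below all Control libraries in this ratio for 8 of these 9 genes (all but Tfb1m) and below all 4wk STZ libraries for 9 of 9. With any gene tested as the denominator this was so for 53.3% and 52.8%, and since the numerator is common to all ratios, they are given without a test.

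**Figure D4:**
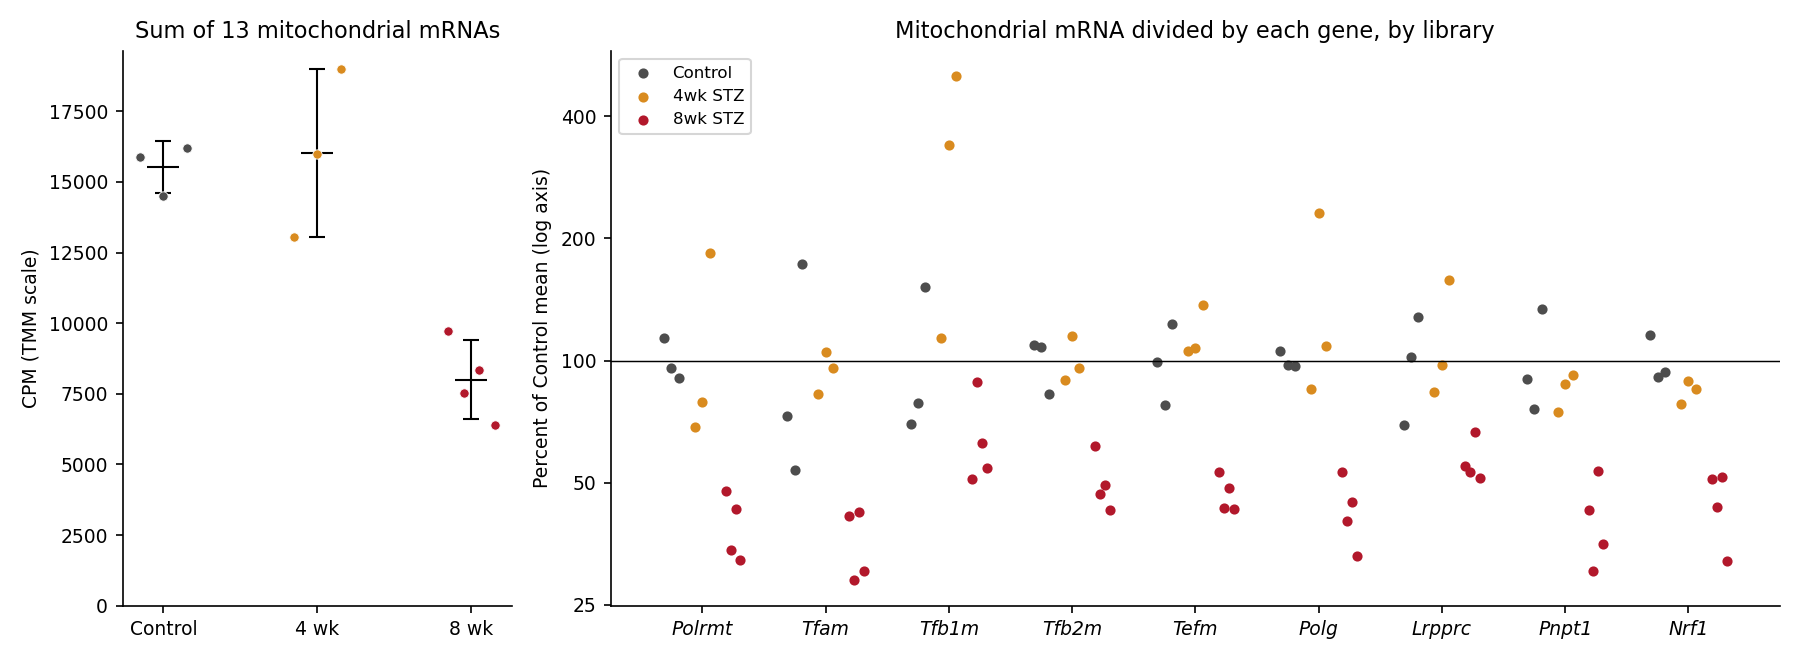
Left, summed CPM of the 13 mitochondrial mRNAs by library with group mean and SD; right, that sum divided by the CPM of each gene but Slirp, as a percent of the Control mean on a log axis. The 8wk STZ points lie below all Control points for every gene shown but Tfb1m. Their group means run from 35.6% (56.2% without Control 3) for Tfam to 64.1% (86.4% without Control 3) for Tfb1m.

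Other nuclear genes of the same pathways likewise gave no call. Of 63 genes in 5 lists, 62 were tested (Mterf2 was not), and 0 of 62 passed in each comparison (edgeR, against the shares of all genes given above). At an unadjusted p under 0.05, 0 were higher and 3 lower at 4 weeks (4.78% and 4.97% of all genes). At 8 weeks 9 were higher and 2 lower against Control (8.42% and 7.24% of all genes), and 10 higher and 2 lower against 4wk STZ (7.18% and 6.48%). DESeq2 called 1, 4 and 8 of the 62 and limma-voom 0, 1 and 1, against the shares of all genes that each called, given above. The medians over the 62 were -0.09, 0.04 and 0.16.

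The 12 coactivators and nuclear transcription factors had a median log2 fold change of -0.04 at 8 weeks against Control, with Nfe2l2, the factor of the antioxidant response, at 332 ± 17.7 CPM in Control and 324 ± 34.4 in 8wk STZ. Tfe3, a factor of lysosomal and mitochondrial genes, was at 148 ± 13.3 and 134 ± 5.00 CPM. The other mitochondrial transcription factors, 7 tested, had a median of -0.006. Their most abundant members were Mrpl12, a ribosomal protein that also binds POLRMT, at 47.9 ± 5.48 in Control, 40.9 ± 1.19 in 4wk STZ and 62.3 ± 6.57 CPM in 8wk STZ, and Mterf3, a terminator-family protein, at 24.6 ± 4.58, 23.1 ± 6.56 and 23.3 ± 3.70 CPM. Mrpl12 gave a log2 fold change of 0.61 (0.33 to 0.88, adjusted p = 0.0503) between the times and 0.38 (adjusted p = 0.145) against Control. The first of these was past the threshold with library totals as the scaling, without a low-count filter, with a CPM filter, with DESeq2 and with the likelihood ratio test.

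The 19 genes of mitochondrial RNA processing and decay had a median of -0.03. Angel2, of the deadenylase family, stood at 56.5 ± 7.16 CPM in Control and 76.5 ± 10.8 in 8wk STZ (log2 fold change 0.44, adjusted p = 0.163), and Rexo2, an exonuclease for short RNA, at 57.4 ± 11.5 CPM in Control and 56.2 ± 8.33 CPM in 8wk STZ. The 17 genes of mitochondrial DNA replication and maintenance had the highest median of the 5 lists, 0.26, with 13 of 17 above 0 against 49.4% of all genes. Its most abundant members had values below 0 and did not pass. Slc25a4, the ADP/ATP carrier, was at 287 ± 44.6 CPM in Control and 239 ± 16.6 in 8wk STZ (log2 fold change -0.27, adjusted p = 0.260), and Tk2, mitochondrial thymidine kinase, at 70.5 ± 9.97 and 64.5 ± 5.92 CPM. The 7 genes of mitochondrial rRNA modification, the task of Tfb1m, had a median of 0.15, with Nsun4, an rRNA methyltransferase, at 29.6 ± 8.82 and 27.4 ± 3.73 CPM and Mettl17, a mitochondrial ribosome assembly protein, at 12.3 ± 1.49 and 19.6 ± 1.07 CPM (log2 fold change 0.67, adjusted p = 0.301).

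**Figure D5:**
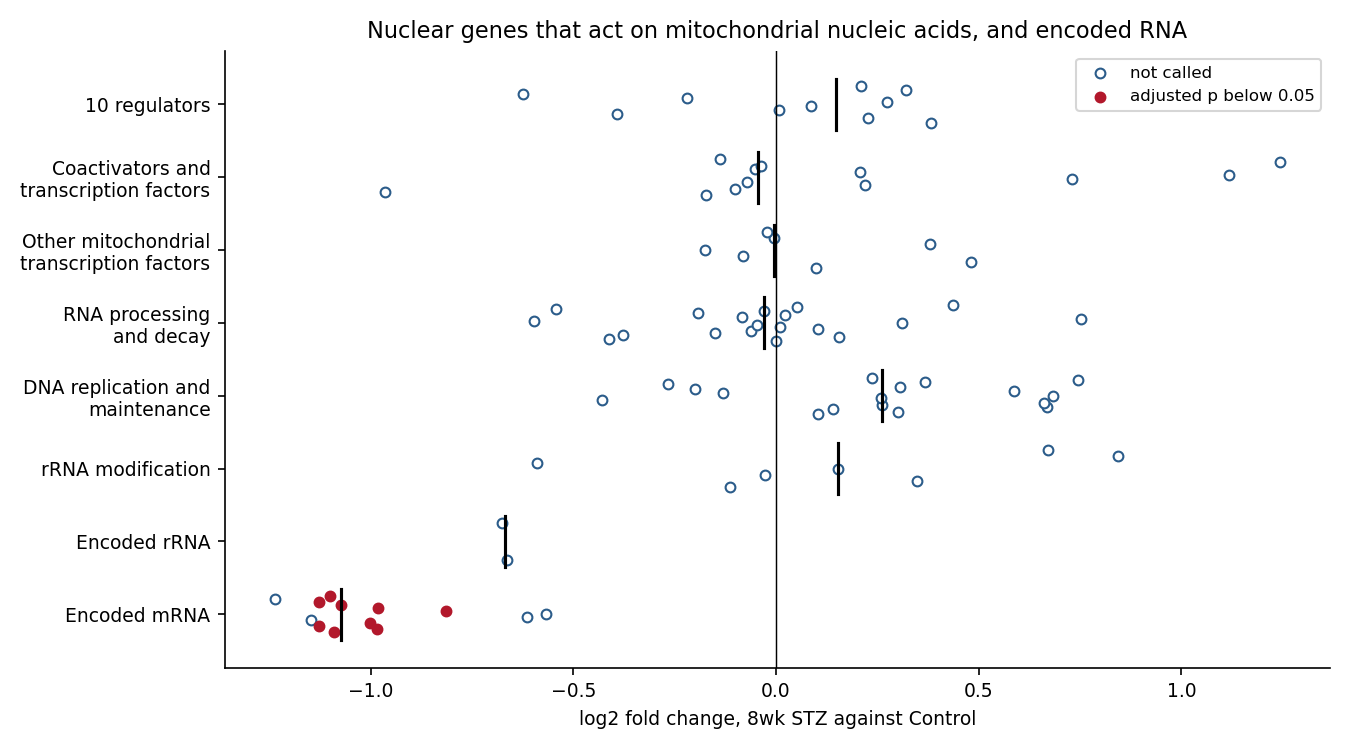
Log2 fold change at 8 weeks against Control of each gene tested in the 10 regulators, the 5 lists of other nuclear genes and the mitochondrially encoded rRNA and mRNA; short vertical lines are list medians, and filled points passed the test. The filled points are the 9 called mitochondrial mRNAs, and the nuclear lists have medians from -0.04 to 0.26.

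The genes whose level followed Polrmt most closely over the 10 libraries were Traf5, Smpd2 and Rsf1 (Pearson r of log2 CPM 0.941, 0.934 and 0.931, the highest of 6625 protein-coding genes). Those closest to Tfam were Dus1l, Rab22a and Farsa (0.952, 0.917 and 0.896). The points share their libraries, depth and group, and the values are descriptions.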

How the data were processed

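RNA of sorted retinal microglia from 10 mice was copied into cDNA with the SMARTer Ultra Low kit and read in pairs, per the labels' protocols. The authors deposited raw counts of reads for every gene, per the file headers. Tools named in the submitters' processing notes are STAR, featureCounts, Salmon, bcl2fastq, Subread, edgeR and limma, with the build GRCm38. Their roles, the gene annotation, the use of strand and the treatment of multi-mapping reads are details not given in the sources used here. A second deposited table holds the authors' comparisons as log2 fold change, likelihood ratio score, p-value and FDR, per the file headers, and its values are printed only where named.

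Of 55774 entries 287 repeated a gene with identical counts and were dropped, and 1 value column was not used. Counts were filtered with filterByExpr by group, scaled by TMM and fitted in edgeR 4.0.16 (R 4.3.3) over all 10 libraries with 1 mean per group (7 residual degrees of freedom). The robust quasi-likelihood test was adjusted by Benjamini-Hochberg over 18957 genes, and a call is an adjusted p under 0.05. CPM is on the TMM scale, and values per kb use the exon union of the GENCODE vM21 annotation. Intervals are 95% intervals of the fit. DESeq2 1.42.0, limma 3.58.1, other scalings and filters, and fits without single libraries were run as alternatives, and the scripts were tested on simulated data. No replicate pair was alike enough to be 1 library (chi-square over degrees of freedom at least 52.7).

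The genes and lists were chosen with earlier results of these data known. Named genes are the 10 regulators, up to 4 called genes per list or else its 2 with the highest mean CPM, and the 3 genes most like Polrmt and Tfam.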

Additional observations from a re-analysis of the deposited data

How the results depend on the processing

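Under 22 alternatives per comparison, 0 of the 10 regulators were called in any comparison, and of 657 of their log2 fold changes 620 kept their sign and 37 turned it, all short of the threshold. Tfb2m at 8 weeks against Control was -0.0032 with DESeq2 size factors, -0.039 with upper-quartile factors and -0.0037 with DESeq2. At 4 weeks it was -0.014 with limma-voom. Between the times it was 0.073 with library totals, 0.011 without a filter and 0.026 with limma-voom. With library totals Lrpprc was 0.035 and Nrf1 0.019 between the times.

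With 1 library left out, or Control 3 and 4wk STZ 3 together (an alternative chosen after seeing the data), the values at 4 weeks ran from -0.089 to 0.43 for Polrmt, -0.65 to 0.12 for Tfam, -0.15 to 0.20 for Tfb2m, -0.48 to 0.083 for Polg, -0.037 to 0.33 for Pnpt1 and -0.33 to 0.13 for Lrpprc. At 8 weeks against Control they ran from -0.10 to 0.54 for Tfam, -0.10 to 0.19 for Tfb2m, -0.64 to -0.14 for Tfb1m, -0.035 to 0.21 for Tefm and -0.38 to 0.084 for Lrpprc. Between the times they ran from -0.11 to 0.16 for Tfb2m, 0.70 to 1.64 for Tfb1m, -0.17 to 0.041 for Lrpprc and -0.15 to 0.062 for Nrf1.

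Of the 62 other pathway genes, the count called at 8 weeks against Control, 0 as reported, was 2 with library totals, 1 without a filter, 2 with a CPM filter, 4 with DESeq2, 1 with limma-voom, 3 with the likelihood ratio test and 0 to 1 with a library left out. Between the times it was 3, 3, 4, 8, 1 and 7 in that order, 1 with only both groups compared and 0 to 1 with a library left out. At 4 weeks it was 1 with DESeq2 and 1 with the likelihood ratio test. Of the 13 mitochondrial mRNAs, 12 were called between the times with DESeq2 against 7 as reported, and 0 to 9 with a library left out.

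The labels do not pair the replicate numbers, and same-numbered libraries did not deviate together (correlations -0.030 to 0.035). With a replicate block 0 mitochondrial mRNAs were called at 8 weeks against Control and 0 between the times, Tfb2m and Lrpprc between the times were 0.034 and 0.0012, and 44 and 0 genes were called in all against 449 and 174. Over all genes, DESeq2 called 314, 1451 and 1004 in the 3 comparisons, the likelihood ratio test 243, 1151 and 749, and an unfiltered fit 12, 506 and 277. A CPM filter called 294 between the times, only both groups compared 100, and fits without 1 library 206 to 462 at 8 weeks against Control and 13 to 118 between the times. Slirp, with 4 to 44 reads per library, was not tested under the CPM filter. Leaving libraries out of the ratios of mitochondrial mRNA to each gene was also chosen after seeing the data.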

Other observations

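A few genes of the other pathway lists are described here, chosen after their values were seen. Of these, Mgme1 and Dguok came close to the threshold at 8 weeks against Control, and Tbrg4 between the times. Mgme1, an exonuclease that trims ends during mitochondrial DNA replication, stood at 30.5 ± 5.95 CPM in Control, 31.5 ± 4.37 with 4wk STZ and 48.6 ± 1.62 with 8wk STZ (SD, n = 3, 3 and 4), with a log2 fold change against Control of 0.67 (95% interval 0.33 to 1.01, edgeR adjusted p = 0.0505). The 8wk STZ libraries lay above all others. Dguok, deoxyguanosine kinase of the mitochondrial nucleotide supply, was at 34.6 ± 4.77, 41.0 ± 2.95 and 52.0 ± 6.29 CPM (log2 fold change against Control 0.59, adjusted p = 0.0613).

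Esrra, the nuclear receptor ERR alpha, which binds genes of mitochondrial biogenesis, was at 4.34 ± 1.57, 4.01 ± 1.22 and 9.44 ± 1.20 CPM (log2 fold change against Control 1.12, 95% interval 0.39 to 1.85, adjusted p = 0.116). Tbrg4, a member of the FASTK family of mitochondrial RNA-binding proteins, was at 15.0 ± 4.81, 11.1 ± 2.10 and 25.3 ± 2.42 CPM, with a log2 fold change between the times of 1.19 (0.65 to 1.73, adjusted p = 0.0516). Elac2, which cuts the 3′ ends of mitochondrial tRNA, was at 16.4 ± 1.68, 7.12 ± 2.48 and 16.4 ± 5.10 CPM, the lowest adjusted p of the lists at 4 weeks (log2 fold change -1.20, edgeR adjusted p = 0.301). None of these passed as reported, but DESeq2 called Esrra, Tbrg4, Mgme1 and Dguok at 8 weeks against Control, Esrra, Tbrg4, Mgme1 and Elac2 between the times, and Elac2 at 4 weeks. The likelihood ratio test called Elac2 at 4 weeks too, Esrra, Mgme1 and Dguok at 8 weeks against Control, and Esrra, Tbrg4, Mgme1 and Elac2 between the times.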
